A study of Mus musculus with 7 samples.

Results

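WNT proteins are secreted signals, and the genes described here are 8 WNT ligand genes (Wnt3, Wnt3a, Wnt4, Wnt5a, Wnt7b, Wnt10a, Wnt10b and Wnt16) together with Wls and Porcn, the 2 genes that every lipid-modified WNT ligand needs to leave the cell. The genes were chosen by symbol in the deposited exon count table. Of the 10, 9 were listed there among 15415 genes, and Wnt16 was not listed. Of the 9 listed genes, 6 had enough reads to be tested, namely Wls, Porcn, Wnt4, Wnt3, Wnt10a and Wnt5a. Wnt7b, Wnt3a and Wnt10b were below the filter on low counts.

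RNA came from mouse back skin (C57Bl6 x B10D2 cross) from which live, CD45-negative, GFP-positive cells of the epidermis were sorted, GFP standing for Lgr5, a marker of hair follicle stem cells. The gate against CD45 should remove leukocytes. Backs of both groups had been shaved and depilated with cream before the skin was taken. The comparison is between 3 Telogen samples (the resting phase of the hair cycle, 45 days of age) and 4 Anagen samples (the growth phase, 35 days of age). Both groups carry the GFP read-out of Lgr5; its allele is not named in the labels, nor is it said whether a sample is 1 animal or a pool. P-values therefore reflect only how these samples scatter, part of which could be technical, and age cannot be told apart from phase.

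WNT ligands are made in the endoplasmic reticulum, where the acyltransferase Porcn attaches a fatty acid to them. The membrane protein Wls binds that fatty acid and carries the ligand to the cell surface, and the retromer complex returns Wls for another round. Outside the cell the ligand binds a Frizzled receptor with a co-receptor such as Lrp6. In the hair follicle, WNT signalling through beta-catenin is known for starting the growth phase.

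The total count of a library was 5097457 to 6453337 for Telogen and 13719893 to 17042690 for Anagen, so depth went with phase. Levels are CPM (counts relative to the library total after TMM scaling), and a mean is given with its SD (3 Telogen libraries, 4 Anagen libraries). A count of 3 stands for 0.176 to 0.5885 CPM in a library by the totals before TMM scaling. The markers of the sorted cell type differed between the groups: of 8 markers of follicle stem cells and basal keratinocytes, all present in every library, 5 were lower in Anagen and 3 higher. Lgr5 lay at 446 to 473 CPM in the Telogen libraries and at 24.9 to 82.7 CPM in the Anagen libraries, Krt15 fell from a mean of 8636 to 171 CPM and Cd34 from 511 to 12.7 CPM. Krt5 rose from 9115 to 17000 CPM and Krt14 from 831 to 5693 CPM, and the 8 genes summed to 18808 to 26891 CPM and 24156 to 29080 CPM. Of 9 dermal fibroblast markers 8 were listed, and they summed to 33.7 to 46.0 CPM in Telogen, where Lum, Dcn and Col6a3 had no count. In Anagen they summed to 1083 and 1524 CPM in Anagen 1 and 2 and to 82.1 and 105 CPM in Anagen 3 and 4. Dermal papilla markers (3 of 6 listed, without Sox2, Rspo3 and Sox18) summed to 1.60 to 7.19 CPM in Telogen and 1.00 to 1.54 CPM in Anagen. Leukocyte markers (8 of 10 listed, 4 of them without a count in Anagen) summed to 1.42 to 27.9 CPM in Telogen and to at most 0.662 CPM in Anagen. Markers of the suprabasal epidermis (5 of 6 listed, all 5 lower in Anagen) summed to 665 to 1128 CPM in Telogen and 17.7 to 28.4 CPM in Anagen. Melanocyte markers (5 of 7 listed) did not move together: Mitf fell from 211 to 8.04 CPM and made up most of their sum of 166 to 319 CPM in Telogen (16.6 to 24.7 CPM in Anagen), while Pmel rose from 4.63 to 10.7 CPM. Schwann cell markers (5 of 5 listed) summed to 11.8 to 20 CPM and 72.3 to 91.8 CPM, with S100b at 0 and 67.9 CPM but Mbp lower in Anagen. Smooth muscle markers (4 of 5 listed) summed to at most 0.793 CPM and to 11.7 to 29.2 CPM, nearly all of it Acta2. Endothelial markers (5 of 5 listed) summed to at most 2.49 CPM and to 2.16 to 10.6 CPM, with Cdh5 at 0 and 4.32 CPM and Pecam1 at 0.904 and 0.0413 CPM. Inner root sheath and hair shaft markers (10 of 10 listed, 5 higher and 1 lower) summed to 397 to 444 CPM and 388 to 452 CPM, with Krt25 rising from 0.119 to 17.2 CPM and Gata3 falling from 300 to 86.1 CPM.

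Among the 6 tested genes, the ligand genes Wnt4 and Wnt3 fell in Anagen, 0 rose, and 4 (Wls, Porcn, Wnt10a and Wnt5a) were not past the threshold. That is 33.3% of the tested genes, against 49.5% of all 12266 genes tested (25.8% higher and 23.7% lower), so the count does not set these genes apart. By edgeR's quasi-likelihood test 0 rose and 2 fell with p left unadjusted (threshold 0.05), where 29.4% of all genes rose and 26.5% fell (55.9% in all). DESeq2 also gave 0 and 2, beside 26.8% and 26.3% of all genes (53.1% in all). With a fold of 2 or more required as well, the counts were again 0 and 2, beside 21.8% and 19.5% of all genes (41.3% in all). The median log2 fold change (Anagen minus Telogen) of the 6 genes was -1.53, beside 0.09 over all genes tested. In these bulk libraries fewer cells of a type and less RNA per cell cannot be told apart.

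**Figure D1:**
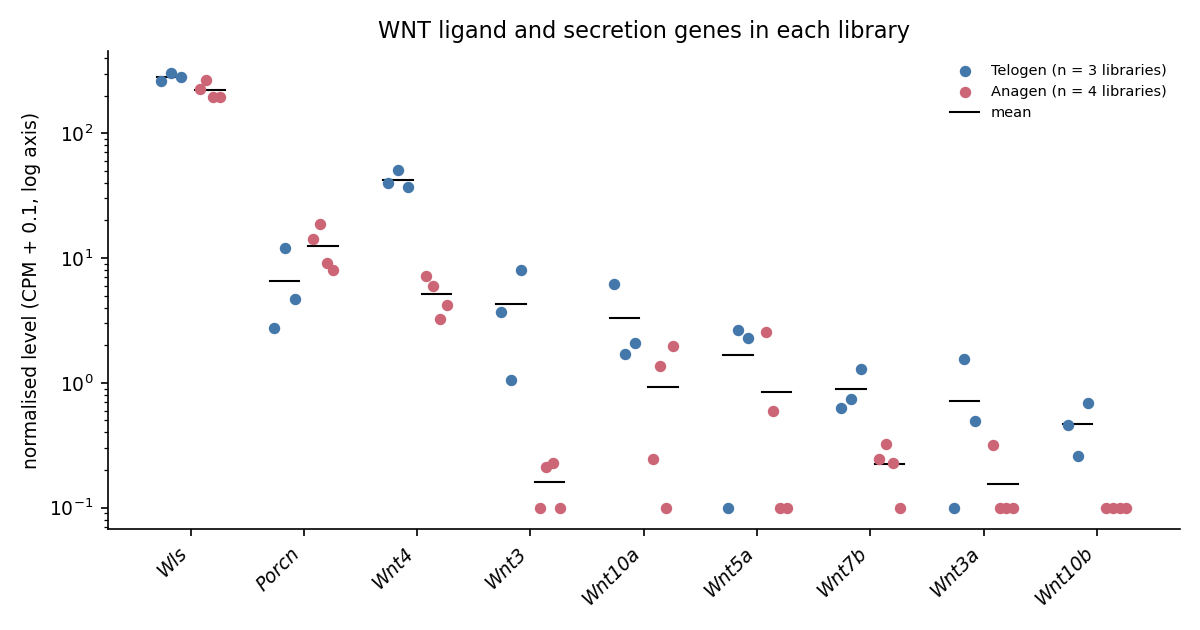
Level of each of the 9 listed genes in every library (CPM + 0.1 on a log axis); points are libraries, bars are means. Wnt4 and Wnt3 are separated between the phases, Wls lies between 193 and 306 CPM in all libraries, and points on the lowest line are libraries with 0 counts.

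The promoter windows of Wnt4 and Wnt3 are shown because these were the genes that passed the test. They are the 250 bases before the RefSeq start site, on build GRCm38.p6 and the plus strand, at chr4:137277385-137277634 for Wnt4 and chr11:103773925-103774174 for Wnt3. Capitals mark the letters GGGCGG or their reverse complement, the GC box, and neighbouring matches can overlap.
Wnt4: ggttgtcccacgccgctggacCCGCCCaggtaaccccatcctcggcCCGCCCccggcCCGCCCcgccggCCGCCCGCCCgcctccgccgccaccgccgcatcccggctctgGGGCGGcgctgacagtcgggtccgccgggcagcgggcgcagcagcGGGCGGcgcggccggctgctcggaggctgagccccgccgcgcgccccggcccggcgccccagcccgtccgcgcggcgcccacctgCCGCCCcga
Wnt3: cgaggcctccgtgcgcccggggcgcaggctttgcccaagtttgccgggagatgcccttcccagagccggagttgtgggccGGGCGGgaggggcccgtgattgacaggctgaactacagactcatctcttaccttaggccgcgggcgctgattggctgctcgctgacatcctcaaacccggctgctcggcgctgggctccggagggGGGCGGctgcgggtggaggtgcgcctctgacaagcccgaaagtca

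The Wnt4 window held 8 GC box matches and was 85.2% G or C, and the Wnt3 window held 2 matches and was 68.0% G or C, beside a median of 52.4% over 32851 windows of the same length. A GC box was present in 32.7% of all windows. The core letters of the TCF/LEF motif, CTTTGA on either strand, were in neither window, nor in those of Wnt3a, Wnt10b, Wnt16 and Wls; 13.8% of all windows held them. The letters TATAAA were also absent from these 6 windows and present in 12.4% of all. A match or its absence describes the letters of the window only.

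Wnt4, the most abundant ligand gene of Telogen, encodes a ligand known for its part in kidney and reproductive tract development (NM_009523, mm10 chromosome 4, 137277635 to 137299501). Telogen 1 to 3 stood at 39.7, 50.3 and 37.2 CPM, Anagen 1 to 4 at 7.13, 5.84, 3.16 and 4.07 CPM. The groups did not overlap: the lowest Telogen library lay above the highest Anagen library. The mean went from 42.4 ± 6.96 to 5.05 ± 1.78 CPM, 8.39-fold lower, with a log2 fold change of -3.07 ± 0.34 (SE; 95% interval -3.81 to -2.33). It passed edgeR's quasi-likelihood test with an adjusted p (Benjamini-Hochberg, over all genes tested) of 4.04e-05. Libraries thinned to equal totals, in a single random draw, gave -3.30. Depth went with phase, and other differences that come with depth were not tested. The 5 listed suprabasal markers were also lower in Anagen. Of the 8 markers of follicle stem cells and basal keratinocytes 5 were lower, among them Krt15, Cd34 and Lgr5, and 3 (Sox9, Krt5 and Krt14) were higher. The part of these cell types in the falls of Wnt4 and Wnt3 was not tested.

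Wnt3, a ligand of the beta-catenin branch, was far lower than Wnt4 (NM_009521, mm10 chromosome 11, 103774175 to 103818021). It had 20, 6 and 40 counts in Telogen 1 to 3, or 3.56, 0.959 and 7.93 CPM. In Anagen 1 to 4 it had 0, 2, 2 and 0 counts, at most 0.129 CPM. All Telogen libraries were above all Anagen libraries, but the Telogen libraries differed widely among themselves. The log2 fold change was -5.80 ± 1.15 (SE; edgeR's quasi-likelihood test, adjusted p = 0.00185). Wnt3 met the filter through its Telogen counts alone, the group where it was higher, so this test is no independent support for the fall. Counted over the groups, the Telogen level was 60.0 times the Anagen level (exact 95% binomial interval 22.4 to 227, counting error only). The fitted fold was 30.9 without Telogen 3, which held most of the reads, and 55.9 with all libraries. The count ratio was 33.7 (interval 11.7 to 133) without Telogen 3. Wnt3 fell below the filter with any single Anagen library left out, or at thinned depth.

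Wnt10a, a ligand gene known from human disorders of hair, teeth and sweat glands, gave 34, 10 and 10 counts in Telogen and 2, 23, 0 and 26 in Anagen (NM_009518, mm10 chromosome 1, 74792019 to 74804175). The level was 6.05, 1.60 and 1.98 CPM in Telogen 1 to 3 and 0.144, 1.27, 0.00 and 1.86 CPM in Anagen 1 to 4. The groups overlapped, with Anagen 4 above Telogen 2. The log2 fold change of -1.96 ± 1.16 (SE; 95% interval -4.50 to 0.59) was not past the threshold of edgeR's quasi-likelihood test (adjusted p = 0.183). The interval holds both no change and a fall larger than that of Wnt4. Single libraries weighed on the value, which was -1.11 without Telogen 1 and -2.72 without Anagen 4.

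Wnt5a, which mostly signals without beta-catenin and is made by many mesenchymal cells, was patchy in both phases (NM_009524, mm10 chromosome 14, 28505473 to 28525515). Telogen 1 to 3 had 0, 16 and 11 counts, Anagen 1 to 4 had 34, 9, 0 and 0. Its Anagen reads thus lay in Anagen 1 and 2, the libraries with the dermal fibroblast marker sums of 1083 and 1524 CPM; whether those cells contributed was not tested. With all libraries the log2 fold change was -1.10 ± 1.52 (SE; edgeR's quasi-likelihood test, adjusted p = 0.572). Without Anagen 1 and 2 the Anagen count was 0, and the level was at least 15.7-fold lower in Anagen (against 3 counts over the remaining Anagen libraries; edgeR's quasi-likelihood test, adjusted p = 0.0522, range over the alternatives 0.0522 to 0.835). An annotated antisense gene, Gm2670, overlaps exons of Wnt5a, and the treatment of strand is not given in the sources used here.

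Wnt7b, Wnt3a and Wnt10b were near the limit of detection. With the filter left out, none of them passed edgeR's quasi-likelihood test (adjusted p = 0.198 for Wnt7b, 0.19 for Wnt3a and 0.0587 for Wnt10b). Wnt7b, a ligand known to act on hair follicle stem cells in mice, had 3, 4 and 6 counts in Telogen and 2, 4, 2 and 0 in Anagen (NM_001163634, mm10 chromosome 15, 85535437 to 85578070). Per depth the Telogen mean was 0.787 ± 0.352 CPM and the Anagen mean 0.123 ± 0.0915 CPM, without overlap, a Telogen level 5.91 times the Anagen level (exact 95% binomial interval 2.27 to 16.4). The difference had an exact two-sided permutation p of 0.0286, the smallest that 3 against 4 samples allow, unadjusted. An antisense gene, AU022754, overlaps its exons too.

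Wnt10b, a ligand known to promote hair growth in mice, had 2, 1 and 3 counts in Telogen 1 to 3 and 0 in every Anagen library (NM_011718, mm10 chromosome 15, 98771752 to 98778150). With Anagen set at 3 counts over its summed depth, Wnt10b was 7.27-fold lower there. The exact 95% binomial interval allowed a fall as small as 4.28-fold. Wnt10b had an unadjusted exact permutation p of 0.0286, again the smallest possible. Without Telogen 3 only 3 counts were left, and no fold can be given. Wnt3a, the ligand used in many laboratory assays of beta-catenin signalling, had 0, 9 and 2 counts in Telogen 1 to 3 and 3, 0, 0 and 0 in Anagen (NM_009522, mm10 chromosome 11, 59248042 to 59290751). The Telogen level was 13.3 times the Anagen level (exact 95% binomial interval 3.52 to 74.4) with an exact permutation p of 0.143. Most Wnt3a reads of Telogen lay in Telogen 2, without which both groups were at or under 3 counts; the ratio was 20 (interval 5.27 to 111) without Telogen 1. Across the 9 listed genes, 4 (Wnt4, Wnt3, Wnt7b and Wnt10b) did not overlap between the groups, against 45.3% of all listed genes, and among the 6 tested genes 2 did not, against 54.5% of all tested.

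Wls, the carrier of WNT ligands, was abundant in both phases and did not pass the test (NR_037590, mm10 chromosome 3, 159839695 to 159935175). It stood at 263, 306 and 281 CPM in Telogen 1 to 3 and at 227, 267, 193 and 195 CPM in Anagen 1 to 4. Anagen 2 lay within the Telogen range and the other Anagen libraries below it. The Telogen mean was 283 ± 21.6 CPM, the Anagen mean 221 ± 34.7 CPM. The log2 fold change was -0.36 ± 0.18 (SE; 95% interval -0.76 to 0.04; edgeR's quasi-likelihood test, adjusted p = 0.123). The interval therefore leaves room for a fall of at most 0.76 on the log2 scale, which is less than the fall of Wnt4. Per length, Wls was above 94.6% of listed genes in Telogen and 95.2% in Anagen.

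Porcn, the acyltransferase, had a higher mean in Anagen without passing the test (NR_131893, mm10 chromosome X, 8193846 to 8206525). The level was 2.67, 12 and 4.56 CPM in Telogen 1 to 3 and 14, 18.7, 9.08 and 7.86 CPM in Anagen 1 to 4. Telogen 2 lay among the Anagen libraries, while Telogen 1 and 3 lay below all of them. The log2 fold change was 0.94 ± 0.53 (SE; 95% interval -0.23 to 2.12; edgeR's quasi-likelihood test, adjusted p = 0.163). Without Telogen 2 it was 1.79 ± 0.52 (SE) and passed edgeR's quasi-likelihood test (adjusted p = 0.0189, range over the alternatives 0.0189 to 0.676), and it was 0.40 without Anagen 1 and 2. The rows of Wls and Porcn carry RefSeq identifiers of the NR series, used for non-coding transcript variants, although both genes code for proteins.

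**Figure D2:**
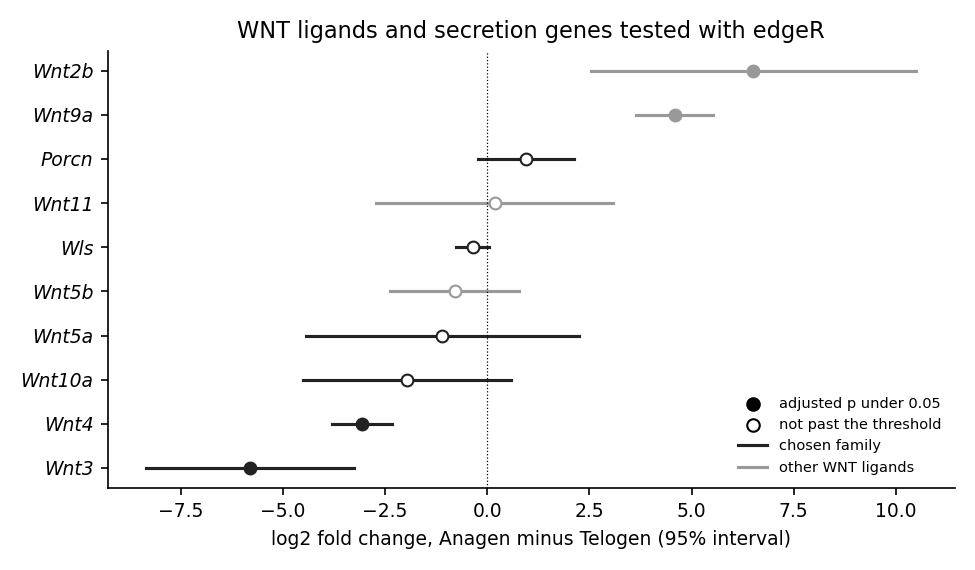
Log2 fold change (Anagen minus Telogen) with its 95% interval for the tested genes, from edgeR's quasi-likelihood fit; black are the chosen genes, grey the other WNT ligands, filled points passed the threshold. The interval of Wls (-0.76 to 0.04) is narrow, those of Wnt5a and Wnt10a reach across 0, and Wnt9a and Wnt2b lie on the positive side.

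Within Anagen, Wnt4, Wnt5a, Wls and Porcn (4 of the 6 tested genes) were each higher in both Anagen 1 and 2 than in both Anagen 3 and 4, an order seen in 18.5% of all tested genes. Lgr5 followed the same order, with 82.7 and 82.2 CPM against 24.9 and 34.9 CPM, as did the collagen gene Col1a1, with 271 and 364 CPM against 16.1 and 23.3 CPM. Of the other follicle stem cell and basal keratinocyte markers, Cd34, Krt15 and Krt14 followed it, while Sox9, Lhx2, Krt5 and Itga6 did not. The part of any cell type in the levels of the WNT genes was not tested. Without Anagen 1 and 2, Wnt4 was still lower in Anagen, with a log2 fold change of -3.55, and Wnt3 with one of -5.69; both passed edgeR's quasi-likelihood test.

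Levels can be compared between genes per length, in the authors' RPKM (counts relative to gene length and library total). In Telogen the order was Wls (mean 97.9 RPKM), Wnt4 (10.7), Porcn (2.32), Wnt10a (1.55) and Wnt3 (1.29). The ranges over libraries of Wls, Wnt4 and Porcn did not overlap, while from Porcn down the range of each chosen gene overlapped that of the next chosen gene. In Anagen Wls was again first (81.7 RPKM), and of the chosen genes Porcn (4.80, overlapping with Wnt9a at 5.42) came next, then Wnt4 (1.36) and Wnt10a (0.431). There Porcn lay above Wnt4 in every library, the reverse of Telogen, and Wnt4 and Wnt10a overlapped.

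Other WNT ligand genes are given beside the chosen ones. Of 11 other ligand genes 6 were listed and 4 tested: 2 rose and 0 fell by edgeR's quasi-likelihood test (0 fell also before adjustment and with DESeq2), with a median log2 fold change of 2.39. That is 50% of those tested, beside 49.5% of all genes (25.8% higher), so the count does not set them apart. Wnt9a, a ligand known from joint development, had 3, 4 and 5 counts in Telogen, or 0.534, 0.639 and 0.991 CPM. In Anagen it had 16.2, 20, 18 and 15.7 CPM, without overlap. The fitted fold was 24.1 (interval 12.5 to 46.2, edgeR's quasi-likelihood test, adjusted p = 1.29e-05). It lies 16176 bases from Wnt3a, in the opposite orientation. Wnt2b, a ligand of the beta-catenin branch, had 0 counts in all Telogen libraries and 0.576 to 1.49 CPM in Anagen, at least 5.87-fold higher against 3 counts over the Telogen libraries. That bound was 3.70 without Telogen 2, and with any single Anagen library left out Wnt2b fell below the filter. Wnt9a and Wnt2b met the filter through their Anagen counts alone, the group where they were higher. The test is therefore no independent support for these rises. Wnt5b (-0.80 ± 0.71, SE) and Wnt11 (0.19 ± 1.32, SE) were not past the threshold. The listed ligand genes below the filter, Wnt7a and Wnt6, had lower means in Anagen and do not enter the median. Wnt7a had 0, 7 and 9 counts in Telogen and 0 in every Anagen library. Wnt6 had 2, 8 and 4 counts in Telogen and 0, 8, 0 and 0 in Anagen.

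In RPKM summed over the 13 listed ligand genes, Wnt4 made up 63.1%, 74.4% and 57.6% of the Telogen libraries' totals but 22%, 15.5%, 11.6% and 14.1% of those of Anagen. Wnt9a made up 0.979% to 1.77% in Telogen and 57.6%, 60.8%, 75.9% and 62.3% in Anagen. Thus Wnt4 led in every Telogen library and Wnt9a in every Anagen library. The sum itself was 16.3 ± 1.02 RPKM in Telogen and 8.51 ± 1.41 RPKM in Anagen. For the 7 listed ligands among the chosen genes alone it was 14.4 ± 0.688 and 2.03 ± 0.774 RPKM. These sums and shares are descriptions, with no test.

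**Figure D3:**
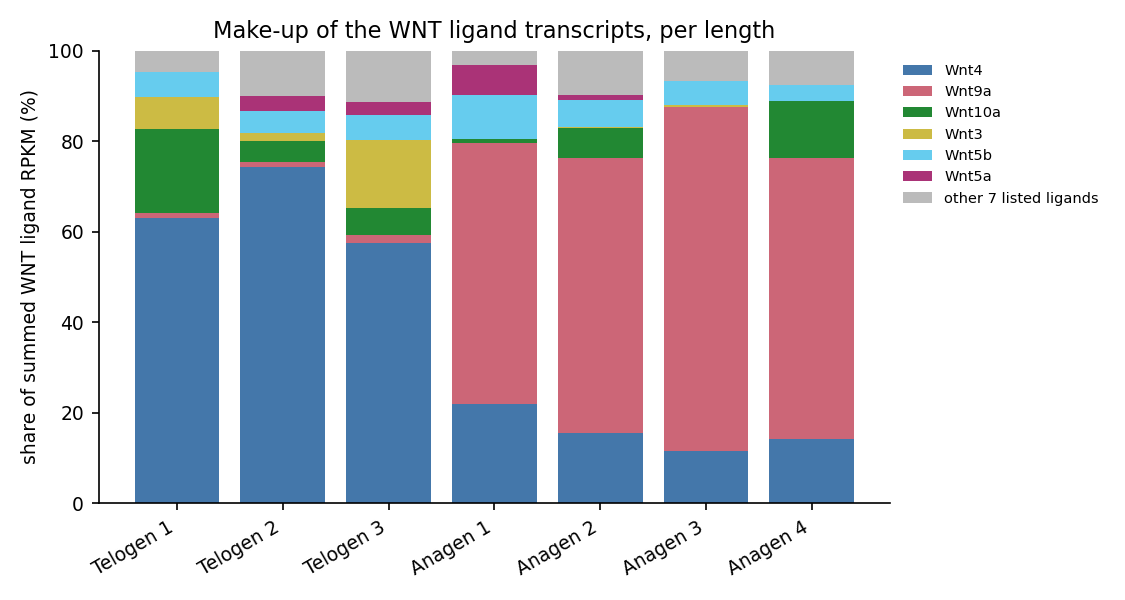
Share of each ligand gene in the summed RPKM of the 13 listed WNT ligand genes (percent, y axis) in each library (x axis). Wnt4 fills 57.6% to 74.4% of the Telogen bars and Wnt9a 57.6% to 75.9% of the Anagen bars.

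Genes that handle WNT proteins on the way out of the cell or outside it were mixed. Of 13 listed genes 12 were tested, 2 rose, 5 fell and 5 were not past the threshold, with a median log2 fold change of -0.42; 58.3% passed, against 49.5% of all genes. Trabd2b, a membrane protease that cuts WNT ligands and so inactivates them, fell from 127, 81.0 and 102 CPM in Telogen to 7.13, 9.15, 12 and 7.29 CPM in Anagen. That was an 11.6-fold fall without overlap (log2 fold change -3.53 ± 0.28, SE; edgeR's quasi-likelihood test, adjusted p = 5.12e-06). Snx3, the sorting nexin that works with the retromer in recycling Wls, fell from 380 ± 200 to 123 ± 23.2 CPM, 3.10-fold, a call lost when the replicate block and the offsets for GC content were used at once.

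The retromer subunit genes Vps26a and Vps35 fell slightly, by 0.60 ± 0.17 and 0.65 ± 0.19 on the log2 scale (SE). Both calls were lost without Anagen 1 and 2 and when GC content and length entered as offsets, and Vps35 also lost its call without Telogen 2. The heparan sulfate proteoglycan gene Gpc3 fell 4.96-fold, with Telogen 1 (5.88 CPM) inside the Anagen range (3.23-fold and no longer past the threshold without Telogen 3; the call was also lost with the replicate block), while its relative Gpc4 rose 2.31-fold, a call lost without Anagen 1 and 2. Tmed10, a cargo receptor of early secretory transport, rose from 67.9 ± 0.953 to 131 ± 11.6 CPM. Notum, the enzyme that removes the fatty acid from WNT ligands, was below the filter. It stood at 0.00, 11.2 and 0.396 CPM in Telogen 1 to 3 and at 0 counts in Anagen, so its reads came almost wholly from Telogen 2, the Telogen library with the highest Porcn level.

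**Figure D4:**
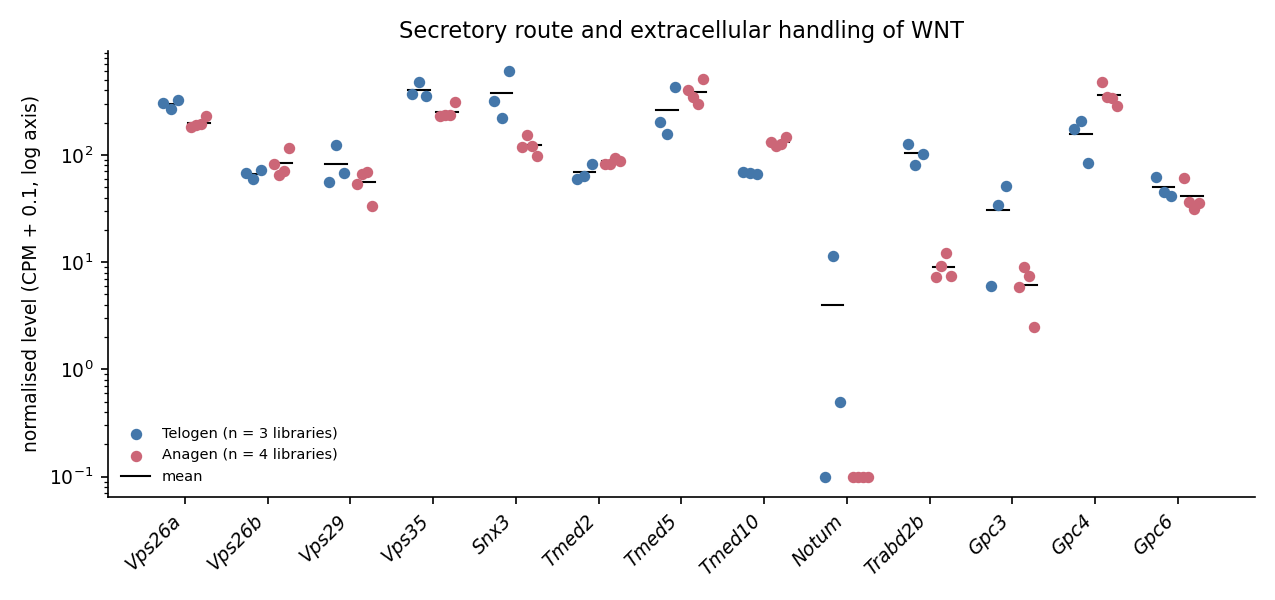
Level (CPM + 0.1, log axis) of the 13 genes of the secretory route and extracellular handling of WNT in each library; bars are means. Trabd2b and Snx3 are lower and Tmed10 is higher in all Anagen libraries, and Notum has a single high point, Telogen 2 at 11.2 CPM.

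On the receiving side, 18 of 18 receptor and co-receptor genes were listed and 16 tested. Of these 7 rose, 3 fell and 6 were not past the threshold (62.5% passed, against 49.5% of all genes), with a median log2 fold change of 0.60. Fzd6, a Frizzled known in mice for the orientation of hairs, rose from 81.3 ± 29.5 to 442 ± 30.8 CPM, 5.44-fold. Lrp6, the main co-receptor of the beta-catenin branch, rose from 174 ± 39.8 to 626 ± 93.8 CPM, 3.60-fold. Fzd5 rose 2.63-fold, and Reck, which helps Wnt7 ligands reach their receptor, rose 33.3-fold from 0.304 ± 0.127 to 10.3 ± 3.08 CPM. Fzd2 fell 2.49-fold, from 171 ± 41.0 to 68.7 ± 12.8 CPM.

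The co-receptor gene Ryk fell 1.67-fold, a call lost without Telogen 1 or without Anagen 1 and 2. Fzd7, the receptor gene with the highest mean per length in both phases, went from 904 ± 126 to 636 ± 93.6 CPM, a fall of 0.51 ± 0.18 on the log2 scale (SE). It lost its call in 8 of 16 alternatives, among them those without Telogen 1, Telogen 2, Anagen 1, Anagen 2 or Anagen 3. The adjusted p-values of edgeR's quasi-likelihood test were 2.55e-05 for Fzd6, 5.87e-05 for Lrp6, 7.61e-05 for Reck and 0.000872 for Fzd2. Reck, Fzd4 (5, 0 and 2 counts in Telogen 1 to 3) and Fzd10 (0, 2 and 0) met the filter through their Anagen counts alone. That was the group where they were higher, so the test is no independent support for these rises.

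**Figure D5:**
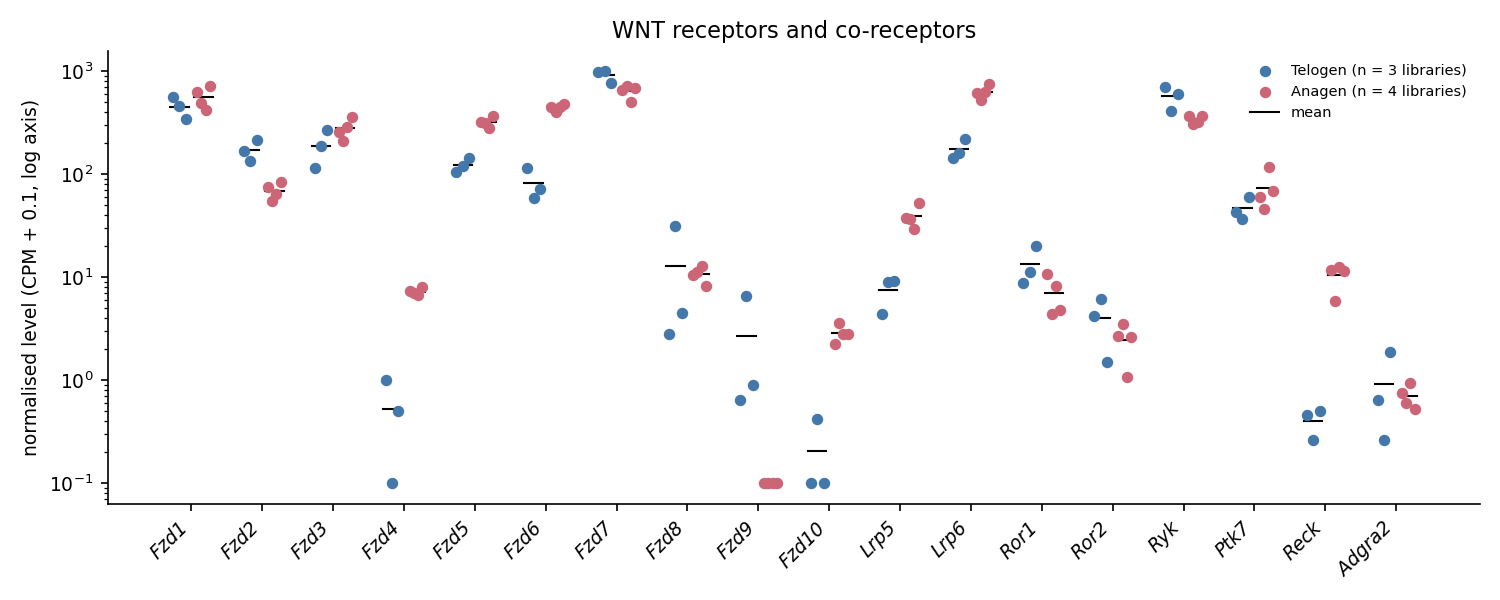
Level (CPM + 0.1, log axis) of the 18 WNT receptor and co-receptor genes in each library; bars are means. Fzd4, Fzd5, Fzd6, Fzd10, Lrp5, Lrp6 and Reck are higher in every Anagen library, and Fzd2, Fzd7 and Ryk are lower.

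The genes whose pattern over the 7 libraries was most like a given gene were found by Pearson's r of log2 CPM, as a description in which the phase difference weighs heavily. For Wls they were D6Wsu163e (r = 0.987), Cotl1 (0.986) and Nub1 (0.985), and 26 genes had an r over 0.95. For Wnt4 they were Tceal1 (0.999), Gramd4 (0.998) and Igdcc4 (0.998), among 777 genes over 0.95. For Wnt9a they were Prss12 (0.998), Lypd3 (0.997) and Slc9a3r1 (0.997), among 1034. The libraries share their depth and phase, so these values say nothing of shared control.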

How the data were processed

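The authors deposited raw read counts per gene over exons and RPKM values for the 7 libraries, per the file headers. Per the submitters' processing notes the build was mm10. Which aligner and counter were used, and how strand was handled, is not given in the sources used here. Each deposited RPKM was compared with count over length and total, and they were equal in 107905 of 107905 values (relative tolerance 1e-10). Per the labels' protocols, RNA was amplified with the Ovation RNA-Seq System V2.

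Counts were tested with edgeR 4.0.16 in R 4.3.3 (quasi-likelihood, robust, TMM factors, minimum count 10, minimum total 15, group as the only term) over 12266 genes, Benjamini-Hochberg threshold 0.05; the test was checked on simulated counts. Alternatives used DESeq2 1.42.0 and the settings named in the closing section. Intervals and floors (3 counts) cover counting error only. Gene starts are given 1-based; overlaps come from GENCODE M21 and promoters from RefSeq, which held windows for 6 of the 10 genes.

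The genes and lists were chosen with earlier results of these data known. All 10 genes are named, and of each list up to 4 passing genes per direction by adjusted p. Vps35, Notum, Wnt5b, Wnt6, Wnt7a, Wnt11, the counts of Fzd4 and Fzd10 and the neighbours of Wnt4 were added after their values were seen.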

Additional observations from a re-analysis of the deposited data

Results flagged for a closer look

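Wnt3a in Anagen 1, at 0.216 CPM (3 counts), stood apart from the other Anagen libraries, which had 0 counts. Of 13 genes looked at in this way, chance would mark about 1 in 20 groups.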

How the results depend on the processing

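The fall of Wnt4 (log2 fold change -3.56 to -2.90) passed under all 16 alternatives. That of Wnt3 (-6.29 to -4.95) passed under the 9 that could test it, and Wnt3 met the filter through its Telogen counts alone. None of the 6 tested genes changed direction. Among the other lists 2 genes not past the threshold did change direction and were then called higher: Vps29 (-0.57, against 0.77 with the replicate block and offsets) and Fzd8 (-0.28, against 1.59 without Telogen 2). Wnt11, Vps26b, Fzd1 and Ptk7 also changed direction under some alternative, but never passed the threshold. Porcn passed without Telogen 2 (1.79; range 0.58 to 1.79 over single libraries left out; the cause was not tested). With single libraries left out, 22% to 25.5% of all genes rose and 20.4% to 22.6% fell; the chosen genes that rose numbered 0 to 1 and that fell 1 to 2, the other ligands that rose 1 to 2 and fell 0 to 1, the handling genes that rose 2 to 3 and fell 4 to 5, the receptors that rose 7 to 8 and fell 2 to 3. At thinned depth (25.5% of all genes rose, 25.7% fell) and with the replicate block (20.2% and 20.2%), 1 chosen gene fell and 1 other ligand rose, Wnt3 and Wnt2b being too low to be tested there. The filter left out gave 1 other ligand that fell (18.8% of all genes). With GC content and length as offsets 4 handling genes rose (23.1% of all genes). Without Anagen 1 and 2 (18.1% of all genes rose, 18.9% fell), 1 handling gene rose and 3 fell, 1 other ligand rose and 1 receptor fell. With a fold of 2 or more (21.8% and 19.5%), 1 handling gene rose, 3 fell and 1 receptor fell. The replicate block with offsets (17.4% and 17.9%) gave 1 chosen gene that fell, 1 other ligand that rose, 4 handling genes that rose and 2 that fell, and 2056 of all genes that rose, against 3170. Same-numbered samples share only a number: their deviations correlated at 0.0121, 0.0375 and -0.00633 (Telogen 3 correlated best with Anagen 1, at 0.0244), and the replicate block gave 2386 genes that rose and 2381 that fell, against 3170 and 2902. Scaling by library totals moved the median log2 fold change by 0.10.

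Of the 9 listed genes 3 were too low to be tested, and the intervals of Wnt5a and Wnt10a, whose counts scattered widely between libraries, span more than the change of Wnt4.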
